A study of Homo sapiens with 12 samples.

Results

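The hypoxia response and glycolysis genes described here are 34 genes listed by name and matched by symbol to their Ensembl identifiers in both deposited gene tables, out of 60616 genes in each. They fall into 5 roles: 2 oxygen-regulated alpha subunits of the hypoxia-inducible factors (HIF), 2 prolyl hydroxylases that sense oxygen, 10 HIF targets outside glycolysis, 5 glucose transporters and kinases that steer glycolysis, and 15 glycolytic enzymes. The oxygen sensors are HIF targets themselves and are counted with the non-glycolytic HIF targets, giving 12, where these are set against the 15 enzymes. Enough reads for a test were found for 33 members in the resistance experiment and for 32 in the siRNA experiment.

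RNA-seq was performed on Du145, an androgen-independent human prostate cancer cell line, in 2 experiments with 6 libraries each. The resistance experiment held 2 libraries each of the parental line (Du145-P), passaged alongside the selection, of a docetaxel-resistant line (Du145-DtxR) and of a cabazitaxel-resistant line (Du145-CbzR), both selected from Du145 by 72 h exposures to the taxane, a microtubule-stabilizing drug, at doses that doubled from 1 nM up to 125 nM. The siRNA experiment held 3 libraries of Du145-DtxR cells given a control siRNA (siControl) and 3 of the same cells given an siRNA against BRPF1 (siBRPF1), a scaffold protein of a histone acetyltransferase complex; the siRNA was added 24 h after plating and stayed on for 24 h, and RNA was taken 48 h after the medium was changed. Each resistant line is 1 derived line, so differences between lines and differences caused by the drug cannot be told apart, and no sample is labelled as grown in low oxygen.

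HIF consists of an alpha subunit and ARNT. In oxygen, the prolyl hydroxylases mark the alpha subunit for destruction through VHL, so HIF activity is governed mostly at the protein level, which RNA-seq does not measure. Stabilized HIF binds short response elements with the core ACGTG or GCGTG and induces genes for blood vessel growth, pH control and mitophagy together with most steps of glycolysis, which cancer cells also run in oxygen and which MYC and other factors can drive as well.

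Total estimated counts were 27512422 to 30593573 per library for the resistance comparison and 16667822 to 17306275 with siRNA, and the biological coefficient of variation was 4.76% and 9.62%. BRPF1 stood at 29.4, 30.6 and 31 CPM (counts per 1000000, scaled by the trimmed mean of M values, TMM) in siControl and at 8.96, 8.67 and 8.19 in siBRPF1. Of the epithelial markers, KRT8 and KRT18 were at 94.0 CPM or more in every library, while KRT19 ranged from 6.36 to 182, EPCAM from 8.15 to 15.6 and CDH1 from 0.287 to 38.9. Of the leukocyte, endothelial and fibroblast markers, COL1A1 ranged from 1.88 to 12.04 CPM, and CD3E, CDH5, COL1A2, PECAM1 and PTPRC were at 1.07 or less. Transcripts of the mitochondrial genome took 14.3% and 15.3% of counts in Du145-P, against 8.91% and 9.48% in Du145-DtxR, 12.1% and 12.7% in Du145-CbzR, 13.5% to 16.6% in siControl and 11.4% to 15.1% in siBRPF1. In bulk RNA, fewer expressing cells and less RNA per cell cannot be told apart.

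Promoter windows, from 250 bases before to 50 after the annotated start, were taken from RefSeq (GRCh38.p14) for 30 members. VEGFA, NDRG1, BNIP3L and SLC2A3 were left out, so the motif counts say nothing about their promoters. ACGTG, searched on both strands, occurred in 16 of the 30 (53.3%), against 23.8% of 15108 promoters of the same length, and GCGTG in 46.7% against 45.5%. The palindrome CACGTG counts on both strands as 2 overlapping ACGTG matches. The windows printed here were chosen because these genes carry the contrasts that follow: LDHA and PDK1 were higher in both resistant lines, HK2 and ADM took different courses in the 2 lines, ALDOC was lower in Du145-DtxR, ANKRD37 passed no test and EGLN3 was lower in both. Capitals mark ACGTG and GCGTG or their reverse complements CACGT and CACGC.
LDHA, chr11:18394313-18394612, plus strand: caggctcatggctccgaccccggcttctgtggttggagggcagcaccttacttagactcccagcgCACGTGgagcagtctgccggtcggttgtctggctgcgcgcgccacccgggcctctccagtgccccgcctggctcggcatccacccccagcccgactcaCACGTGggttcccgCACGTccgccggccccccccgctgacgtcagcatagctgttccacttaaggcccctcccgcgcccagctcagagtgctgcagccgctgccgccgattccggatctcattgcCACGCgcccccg
PDK1, chr2:172555840-172556139, plus strand: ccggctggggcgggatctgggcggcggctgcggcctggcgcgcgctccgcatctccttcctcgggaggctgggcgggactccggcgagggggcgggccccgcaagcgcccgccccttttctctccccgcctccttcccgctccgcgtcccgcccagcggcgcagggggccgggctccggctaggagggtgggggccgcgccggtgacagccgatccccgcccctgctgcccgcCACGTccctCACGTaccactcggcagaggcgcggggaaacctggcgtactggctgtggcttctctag
HK2, chr2:74833877-74834176, plus strand: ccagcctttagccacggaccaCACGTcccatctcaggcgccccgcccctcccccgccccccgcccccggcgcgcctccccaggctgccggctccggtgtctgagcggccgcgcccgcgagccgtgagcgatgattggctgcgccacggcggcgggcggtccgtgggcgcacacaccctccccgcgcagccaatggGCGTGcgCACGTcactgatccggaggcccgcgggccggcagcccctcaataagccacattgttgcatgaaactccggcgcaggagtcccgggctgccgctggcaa
ADM, chr11:10304823-10305122, plus strand: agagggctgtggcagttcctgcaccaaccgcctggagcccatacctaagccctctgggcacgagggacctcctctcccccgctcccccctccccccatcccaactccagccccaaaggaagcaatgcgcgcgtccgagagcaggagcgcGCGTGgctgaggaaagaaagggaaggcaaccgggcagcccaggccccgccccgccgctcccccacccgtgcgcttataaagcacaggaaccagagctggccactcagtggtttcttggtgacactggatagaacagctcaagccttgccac
ALDOC, chr17:28576846-28577145, minus strand: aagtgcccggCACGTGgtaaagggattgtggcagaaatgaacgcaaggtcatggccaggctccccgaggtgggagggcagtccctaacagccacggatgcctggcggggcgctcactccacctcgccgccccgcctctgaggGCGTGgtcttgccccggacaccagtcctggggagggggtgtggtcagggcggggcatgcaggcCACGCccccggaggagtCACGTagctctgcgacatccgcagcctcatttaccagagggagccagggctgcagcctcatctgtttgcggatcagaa
ANKRD37, chr4:185396591-185396890, plus strand: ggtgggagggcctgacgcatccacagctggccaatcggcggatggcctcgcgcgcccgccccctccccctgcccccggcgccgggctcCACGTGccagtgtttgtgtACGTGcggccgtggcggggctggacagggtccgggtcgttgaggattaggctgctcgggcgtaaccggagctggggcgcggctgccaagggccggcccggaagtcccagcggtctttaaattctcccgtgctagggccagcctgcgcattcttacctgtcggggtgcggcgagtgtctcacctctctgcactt
EGLN3, chr14:33951025-33951324, minus strand: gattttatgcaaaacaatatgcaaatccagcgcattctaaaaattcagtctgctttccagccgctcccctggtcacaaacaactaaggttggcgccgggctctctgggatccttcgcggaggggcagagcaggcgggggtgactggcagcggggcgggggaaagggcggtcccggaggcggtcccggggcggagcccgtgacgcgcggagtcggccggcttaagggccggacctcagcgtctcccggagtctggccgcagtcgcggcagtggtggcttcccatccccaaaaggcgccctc
LDHA held 5 ACGTG matches, ALDOC and ANKRD37 3 each, PDK1 and HK2 2 each, and ADM and EGLN3 none. Among the 15 tested members with an ACGTG match, 11 rose and 2 fell in Du145-DtxR at an adjusted p under 0.05, where 31.1% of all genes tested rose and 32.0% fell (median log2 fold change 0.51), and among the 14 without one, 8 rose and 5 fell (median 0.47). In Du145-CbzR the counts were 10 higher and 1 lower with a match, and 9 higher and 3 lower without, where 24.4% of all genes were higher and 26.3% lower. The difference between members with and without a match was not tested. On windows off the main start, GPI and GAPDH count as with a match and HK1, PFKP, P4HA2 and PGAM1 as without one. A match describes the letters in the window and does not show that HIF binds there.

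**Figure D1:**
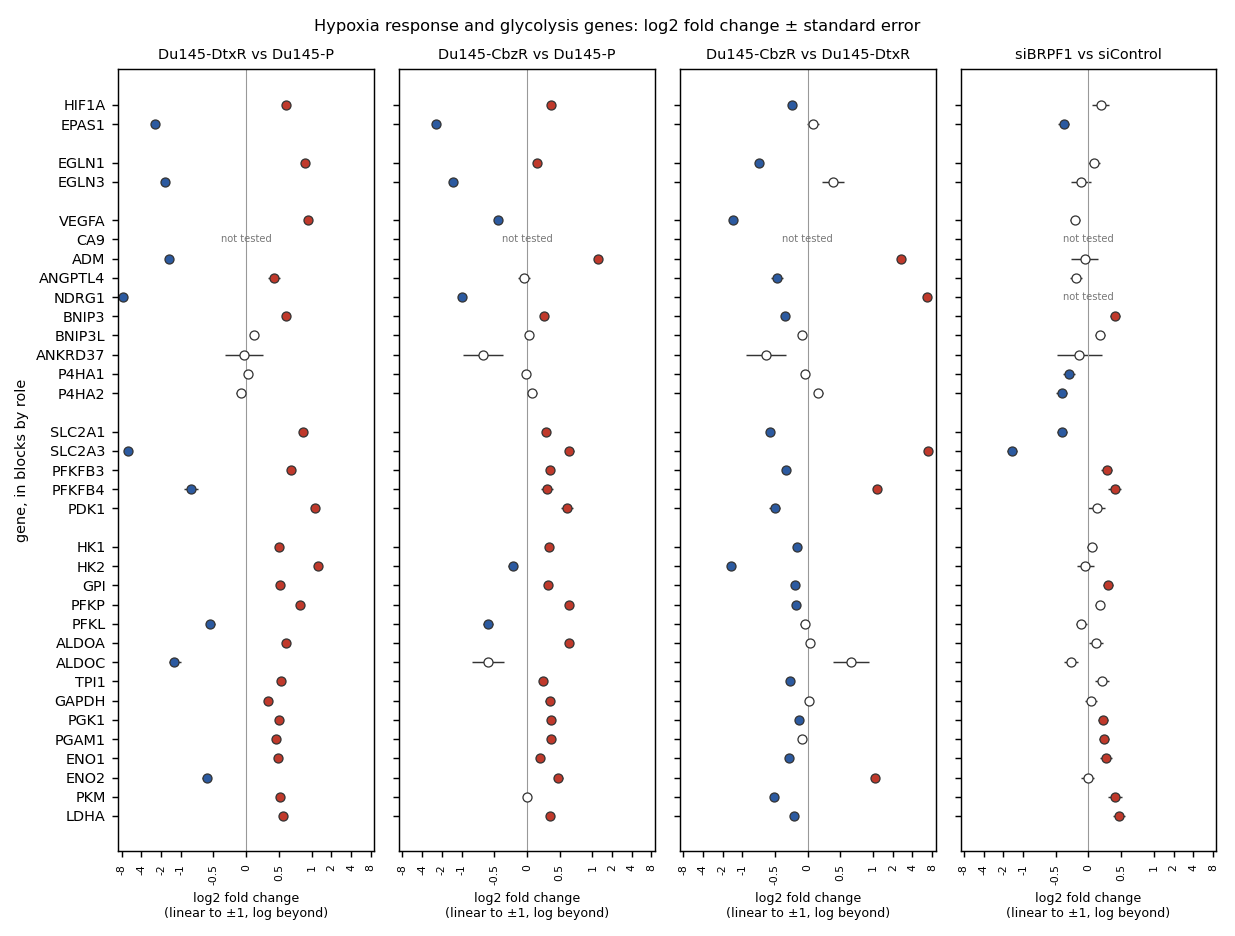
Log2 fold change (x axis, linear between -1 and 1 and logarithmic beyond) of each of the 34 genes (y axis, in blocks by role) in 4 comparisons, with bars for the standard error. Red and blue points are higher and lower at an adjusted p under 0.05, and white points did not pass. In both resistant lines most glycolytic enzymes lie to the right of 0, while the HIF targets scatter to both sides from -7.72 for NDRG1 to 0.95 for VEGFA in Du145-DtxR.

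In Du145-DtxR, nearly the whole glycolytic chain was expressed more than in Du145-P, but the HIF targets outside glycolysis moved in both directions. Of the 33 tested members, 20 were higher and 9 lower at an adjusted p under 0.05 (edgeR quasi-likelihood test, Benjamini-Hochberg over all genes tested), where 31.1% of all genes tested were higher and 32.0% lower. Of the 15 glycolytic enzymes 12 were higher and 3 lower, with a median log2 fold change of 0.51, whereas of the 11 tested non-glycolytic HIF targets 4 were higher and 3 lower, with a median of 0.02. The median over all genes tested was -0.02. Under the study's stricter definition of a differentially expressed gene (DEG, adjusted p under 0.05 and log2 fold change above 1 or below -1), 2 members rose and 6 fell, where 6.62% and 13.8% of all genes did.

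In Du145-CbzR, compared with the same Du145-P libraries, 20 of the 33 members were higher and 6 lower, where 24.4% of all genes were higher and 26.3% lower. The enzymes had 11 higher and 2 lower, with a median log2 fold change of 0.34, and the non-glycolytic HIF targets 3 higher and 3 lower, with a median of -0.02. A single member passed the DEG limits upward (ADM) and 2 downward (EPAS1 and EGLN3), where 3.74% and 7.88% of all genes did. As both comparisons share the Du145-P libraries, the values of the 2 lines are given side by side and their likeness is not read as a result.

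**Figure D2:**
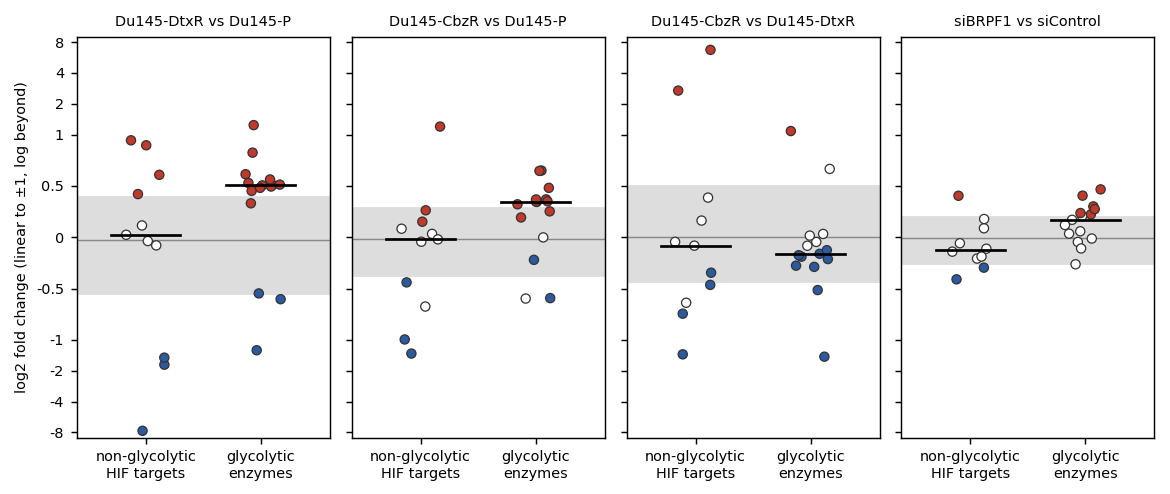
Log2 fold change (y axis, linear between -1 and 1 and logarithmic beyond) of the tested non-glycolytic HIF targets, oxygen sensors included, and of the 15 glycolytic enzymes in each comparison. Points are genes (red higher, blue lower, white not passed; positions across are spread for visibility), black bars are group medians, and the gray line and band are the median and quartiles of all genes tested. The enzyme medians are 0.51, 0.34, -0.16 and 0.17 and the HIF target medians 0.02, -0.02, -0.08 and -0.13.

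The 2 HIF alpha subunits moved apart in both lines. HIF1A, the widely expressed subunit, stood at 229 and 234 CPM in Du145-P, with 355 and 354 in Du145-DtxR and with 292 and 309 in Du145-CbzR. Both resistant lines lay above Du145-P without overlap, with log2 fold changes of 0.61 (SE 0.05, adjusted p = 3.47e-07) and 0.37 (SE 0.05, adjusted p = 4.38e-05). EPAS1, which encodes HIF-2 alpha, fell from 101 and 96.1 CPM in Du145-P to 17.9 and 16.5 in Du145-DtxR and to 19.5 and 16.8 in Du145-CbzR, with log2 fold changes of -2.52 (SE 0.08, adjusted p = 2.09e-10) and -2.44 (SE 0.08, adjusted p = 4.78e-10). The resistant lines did not differ detectably from each other in EPAS1 (0.08, SE 0.09, adjusted p = 0.465). Per kilobase of transcript, EPAS1 made up 25.2% and 23.9% of the HIF1A and EPAS1 signal in Du145-P, with 3.73% and 3.44% in Du145-DtxR and with 4.87% and 4.0% in Du145-CbzR. In the siControl libraries of the siRNA experiment, also Du145-DtxR, this share was 26.8%, 27.1% and 24.1%. The low EPAS1 of Du145-DtxR was thus not seen in both experiments, which were not tested against each other.

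The oxygen sensors also split. EGLN1 (PHD2), the main HIF prolyl hydroxylase in normal oxygen, was at 120 and 113 CPM in Du145-P, with 224 and 209 in Du145-DtxR and with 130 and 129 in Du145-CbzR. Its log2 increase was 0.90 (SE 0.05, adjusted p = 3.16e-08) in Du145-DtxR and 0.15 (SE 0.05, adjusted p = 0.0312) in Du145-CbzR. The latter call was lost without either Du145-CbzR library, without the second Du145-P library and with no filter on low counts. EGLN3 (PHD3), which HIF induces strongly in many cells, fell from 12.6 and 10.2 CPM to 2.98 and 3.81 in Du145-DtxR and to 4.25 and 4.61 in Du145-CbzR, with log2 fold changes of -1.75 (SE 0.16) and -1.36 (SE 0.15). The annotated span of EGLN3 contains SPTSSA on the same strand, which took 96.2% of the counts of this gene pair in the resistance experiment.

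**Figure D3:**
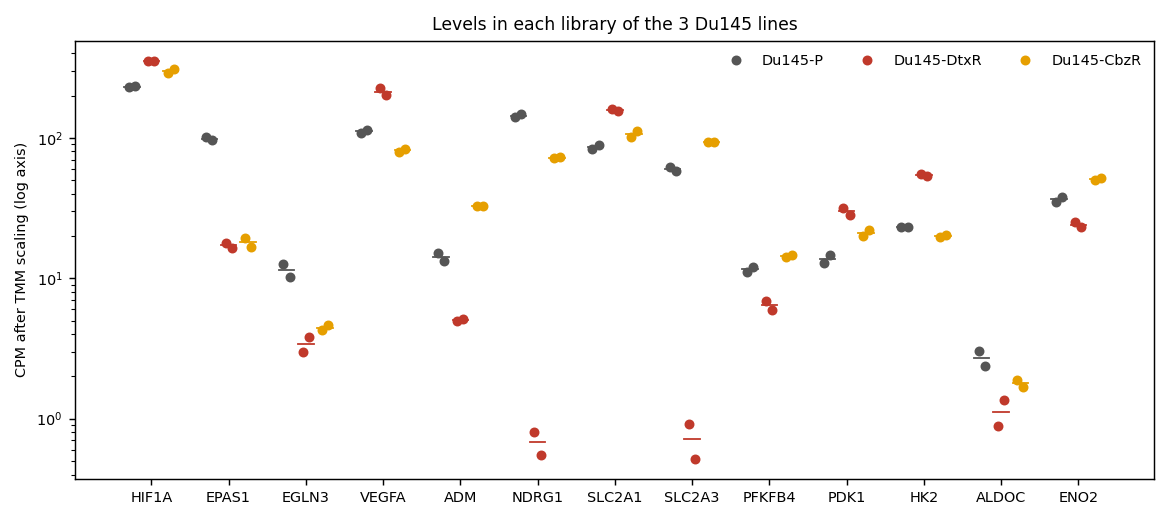
CPM after TMM scaling (y axis, logarithmic) of 13 members in each library of Du145-P (gray), Du145-DtxR (red) and Du145-CbzR (orange). Points are libraries and bars are the means of 2. NDRG1 and SLC2A3 lie below 1 CPM in Du145-DtxR alone among the 3 lines, and EPAS1 lies near 18 CPM in both resistant lines.

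Among the HIF targets outside glycolysis, the largest changes set the 2 resistant lines apart. NDRG1, a stress-responsive gene studied as a metastasis suppressor, stood at 142 and 147 CPM in Du145-P, with 0.809 and 0.554 in Du145-DtxR and with 71.8 and 72.8 in Du145-CbzR. It was lower in Du145-DtxR by far more than the spread between libraries (log2 fold change -7.72, SE 0.10, adjusted p = 5.42e-13) and fell by 1.00 (SE 0.05, adjusted p = 3.60e-08) in Du145-CbzR, just short of the DEG limit. ADM, which encodes the vasodilator peptide adrenomedullin, was at 15.2 and 13.3 CPM in Du145-P, with 5.00 and 5.14 in Du145-DtxR and with 32.8 and 32.7 in Du145-CbzR, so that it fell by 1.49 (SE 0.10) in the first resistant line and rose by 1.20 (SE 0.08) in the second. VEGFA, the main angiogenic growth factor, went the opposite way: from 109 and 113 CPM it rose to 226 and 201 in Du145-DtxR (0.95, SE 0.06, adjusted p = 7.06e-08) and fell to 79.8 and 83.8 in Du145-CbzR (-0.44, SE 0.06, adjusted p = 1.07e-04).

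The mitophagy receptor BNIP3 was at 75.2 and 72.8 CPM in Du145-P, with 116 and 110 in Du145-DtxR and with 87.2 and 90.4 in Du145-CbzR, and rose by 0.61 (SE 0.05) and 0.26 (SE 0.05) on the log2 scale. Its relative BNIP3L, at 310 to 345 CPM over the 6 libraries, passed no test. ANGPTL4, an inhibitor of lipoprotein lipase, rose by 0.42 (SE 0.09) in Du145-DtxR, and its value in Du145-CbzR was -0.04 (SE 0.09). The collagen prolyl hydroxylase subunits P4HA1 and P4HA2, with log2 fold changes between -0.08 and 0.08 in both lines, and ANKRD37, at 0.617 to 1.29 CPM, did not pass either. CA9, the carbonic anhydrase often used as a marker of HIF activity, had 2 counts over all 12 libraries, and its change could not be measured at this depth.

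The RNA levels of the glucose transporters and of the kinases that steer glycolysis changed as follows. SLC2A1 (GLUT1), the basal glucose transporter, was at 83.6 and 89.1 CPM in Du145-P, with 161 and 154 in Du145-DtxR and with 101 and 111 in Du145-CbzR, higher by 0.87 (SE 0.06) and 0.30 (SE 0.06). SLC2A3 (GLUT3), a high-affinity transporter, was at 61.6 and 57.7 CPM in Du145-P, with 0.919 and 0.517 in Du145-DtxR and with 93.9 and 93.1 in Du145-CbzR. The Du145-DtxR libraries thus lay far below all others (log2 fold change -6.37, SE 0.13, adjusted p = 8.80e-12), while Du145-CbzR was higher than Du145-P by 0.65 (SE 0.07, adjusted p = 7.20e-06). Rows of near-identical SLC2A3 copies held up to 12.5% of the counts of SLC2A3 and these copies together, at the low counts of Du145-DtxR. As a share of both transporters per kilobase, SLC2A3 was 39.5% and 36.4% in Du145-P, with 0.503% and 0.295% in Du145-DtxR and with 45% and 42.6% in Du145-CbzR.

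PDK1, a pyruvate dehydrogenase kinase, rose from 12.9 and 14.6 CPM to 31.8 and 28 in Du145-DtxR (1.12, SE 0.09, adjusted p = 6.24e-07) and to 19.9 and 22.2 in Du145-CbzR (0.62, SE 0.09, adjusted p = 1.97e-04). PFKFB3, a maker of the glycolytic activator fructose 2,6-bisphosphate, was higher in both lines, by 0.69 (SE 0.05) and 0.35 (SE 0.05). Its relative PFKFB4 was at 11.2 and 11.9 CPM in Du145-P, with 6.91 and 5.99 in Du145-DtxR and with 14.1 and 14.6 in Du145-CbzR. That is a fall by 0.84 (SE 0.11) in Du145-DtxR and a value of 0.31 (SE 0.10) in Du145-CbzR. The Du145-CbzR call was lost without the second Du145-CbzR or the first Du145-P library, and with the DESeq2 test (adjusted p = 0.0982).

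The enzymes listed next, from the first step to the last, rose in Du145-DtxR by amounts that differed between steps, least for GAPDH and most for PFKP. In Du145-DtxR the log2 fold change was 0.51 for HK1 and GPI, 0.83 for PFKP, 0.61 for ALDOA, 0.53 for TPI1, 0.33 for GAPDH, 0.49 for PGK1, 0.45 for PGAM1, 0.48 for ENO1, 0.51 for PKM and 0.56 for LDHA, with standard errors of 0.04 to 0.07. In Du145-CbzR the corresponding values were 0.34 for HK1, 0.32 for GPI, 0.65 for PFKP and ALDOA, 0.25 for TPI1, 0.35 for GAPDH and LDHA, 0.37 for PGK1 and PGAM1 and 0.19 for ENO1. PKM, the last step to pyruvate, had a value of 0.00 (SE 0.05) there. The calls of TPI1 and ENO1 in Du145-CbzR were lost without the second library of that line. GAPDH was the highest member per kilobase in Du145-P (1776 ± 165 CPM per kb, SD, n = 2), followed by ENO1 (722 ± 26.5), and PKM and ALDOA (419 ± 6.83 and 416 ± 19.4), which did not differ beyond their spread. Summed, the 15 enzymes took 0.720% and 0.771% of scaled counts in Du145-P, with 1.02% and 1.04% in Du145-DtxR and with 0.902% and 0.946% in Du145-CbzR. Between the lines this is the reverse order of the mitochondrial shares given above. Within each line, however, the library with the larger mitochondrial share also had the larger enzyme share. The part of the mitochondrial shares in this was not tested.

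The exceptions among the enzymes were isoforms. HK2, the inducible hexokinase, was at 23.1 and 23.2 CPM in Du145-P, with 55.4 and 53.9 in Du145-DtxR and with 19.6 and 20.2 in Du145-CbzR. It rose by 1.24 (SE 0.06, adjusted p = 1.09e-08) in Du145-DtxR, whereas in Du145-CbzR it fell by 0.22 (SE 0.07, adjusted p = 0.0173). The Du145-CbzR call was lost when any 1 of the 4 libraries was left out and with the DESeq2 test (adjusted p = 0.0887). ENO2, the neuronal enolase, was at 35 and 38.1 CPM in Du145-P, with 25 and 23.1 in Du145-DtxR and with 49.9 and 52.2 in Du145-CbzR, lower by 0.60 (SE 0.07) in the first and higher by 0.48 (SE 0.07) in the second resistant line.

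ALDOC, the brain-type aldolase, stood at only 3.05 and 2.36 CPM in Du145-P, with 0.882 and 1.37 in Du145-DtxR and with 1.88 and 1.69 in Du145-CbzR. It fell by 1.26 (SE 0.26, adjusted p = 0.00123) in Du145-DtxR, and its value of -0.60 (SE 0.24, adjusted p = 0.0604) in Du145-CbzR did not pass. RSKR overlaps ALDOC on the same strand and took 94.9% of the counts of that gene pair in these libraries, and LRRC23 took 18.8% of those shared with ENO2. PFKL, the liver-type phosphofructokinase, fell in both lines, by 0.55 (SE 0.07) and 0.59 (SE 0.07), where the platelet-type PFKP rose. Per kilobase, PFKP took 73.2% and 73.1% of the PFKL and PFKP signal in Du145-P, with 87.0% and 88.2% in Du145-DtxR and with 86.4% and 86.7% in Du145-CbzR. HK2 took 11.1% and 11.2% of the hexokinase pair in Du145-P, with 17.4% and 17.1% in Du145-DtxR and with 7.68% and 7.96% in Du145-CbzR. With 2 libraries a group these shares are a description without a test.

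**Figure D4:**
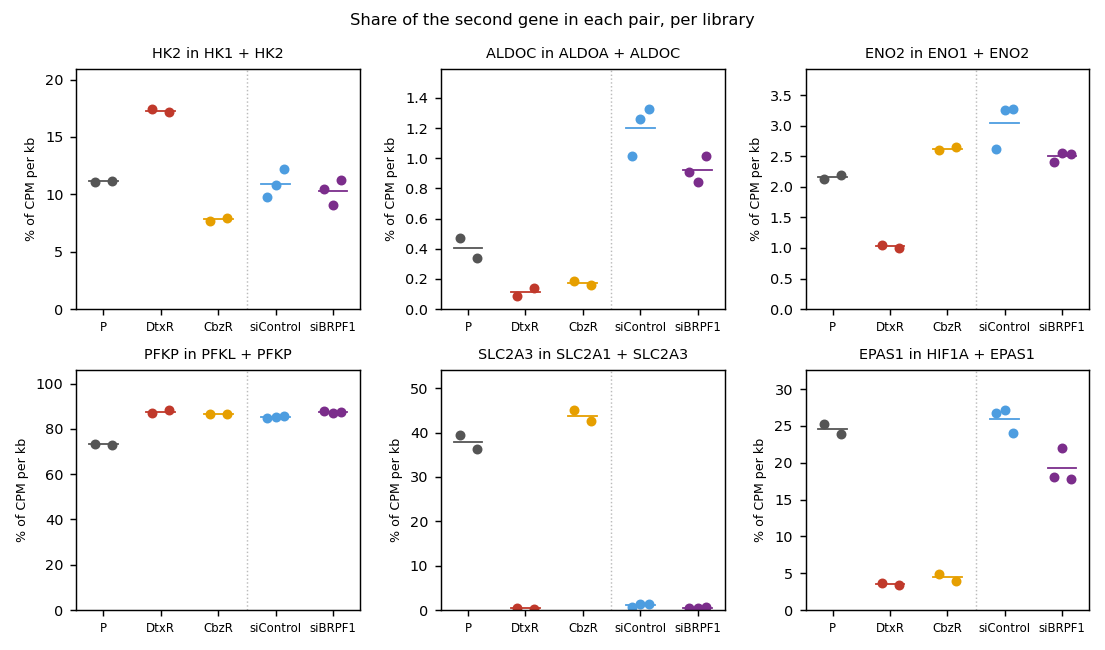
Share of the second gene in 6 pairs of related members, in percent of their summed CPM per kb of transcript (y axis, from 0), in each library; bars are group means and the dotted line separates the 2 experiments, which were not compared with each other. In the resistance experiment SLC2A3 drops to 0.503% or less in Du145-DtxR, and EPAS1 to 4.87% or less in both resistant lines. In siControl, which is also Du145-DtxR, EPAS1 takes 24.1% to 27.1% and SLC2A3 0.777% to 1.26%.

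The resistant lines were also compared directly. Relative to Du145-DtxR, Du145-CbzR had 5 of the 33 members higher and 17 lower, where 31.2% of all genes were higher and 31.8% lower, and 5 and 2 passed the DEG limits, where 12.2% and 8.71% of all genes did. ADM (log2 difference 2.69, SE 0.09), NDRG1 (6.72, SE 0.11), SLC2A3 (7.02, SE 0.13), PFKFB4 (1.15, SE 0.10) and ENO2 (1.09, SE 0.07) were the 5 higher ones. VEGFA (-1.39, SE 0.06) and HK2 (-1.46, SE 0.06) were the DEGs that were lower. Of the 15 enzymes 9 were lower and 1 higher in Du145-CbzR (median -0.16), and under upper-quartile scaling 4 were lower and 3 higher. That scaling moved the median of all genes to 0.11 in this comparison, changing the split of all calls from 5690 higher and 5791 lower to 6759 and 4826. In Du145-DtxR against Du145-P it moved the median to -0.12 and the split from 5660 and 5827 to 4672 and 6842.

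Knockdown of BRPF1 in Du145-DtxR gave smaller changes. Of the 32 tested members, 9 were higher and 5 lower in siBRPF1, where 11.6% of all genes were higher and 15.1% lower. Of the 15 enzymes 6 were higher and 0 lower (edgeR; 0 also with DESeq2, and 1 at an unadjusted p under 0.05, ALDOC), with a median log2 fold change of 0.17, and of the 10 tested non-glycolytic HIF targets 1 was higher and 2 lower, with a median of -0.13. The enzyme count rested on single libraries. It fell to 1 without the second siControl library, to 2 without the first siBRPF1 library, and to 3 without siBRPF1 library 2 or 3 or siControl library 3. Over all genes, 1820 were higher in the main fit, and the calls also changed in these fits. They numbered 974, 935, 1592, 1322 and 1988, in the same order. SLC2A3 was the only member past the DEG limits, downward, where 3.34% of all genes were, and 0.490% upward.

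LDHA, which turns pyruvate into lactate, was at 915, 810 and 775 CPM in siControl and 1225, 1117 and 1115 in siBRPF1. The groups did not overlap, and the log2 fold change was 0.47 (SE 0.09, adjusted p = 0.00270). The other enzymes that passed were PKM (0.41, SE 0.10), GPI (0.30, SE 0.08), ENO1 (0.27, SE 0.09), PGAM1 (0.24, SE 0.08) and PGK1 (0.22, SE 0.07). Each of these lost its call without the second siControl library and, except PKM, without the first siBRPF1 library. The calls of ENO1, PGAM1 and PGK1 were also lost with upper-quartile scaling, and that of PGK1 with no count filter or a mean of 1 CPM. GAPDH (0.04, SE 0.09), ALDOA (0.12, SE 0.10) and HK2 (-0.05, SE 0.12) did not pass, and ALDOC had the lowest value among the enzymes (14.7, 18.1 and 15.1 CPM in siControl, 13.4, 13.1 and 13.5 in siBRPF1, -0.26, SE 0.11). Summed, the enzymes took 1.46%, 1.38% and 1.21% of scaled counts in siControl and 1.58%, 1.62% and 1.46% in siBRPF1, so that the ranges overlapped slightly.

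Both glucose transporters went down with siBRPF1. SLC2A1 was at 303, 319 and 286 CPM in siControl and 228, 234 and 221 in siBRPF1, a fall by 0.41 (SE 0.08, adjusted p = 0.00295) without overlap. SLC2A3, already scarce in Du145-DtxR, was at 2.68, 4.61 and 4.10 CPM in siControl and 0.918, 1.44 and 1.72 in siBRPF1, a fall by 1.48 (SE 0.27, adjusted p = 0.00254). PFKFB4 (11.5, 12.8 and 12.4 CPM against 15.4, 16.7 and 16.3) rose by 0.40 (SE 0.10, adjusted p = 0.0138), and PFKFB3 by 0.28 (SE 0.08, adjusted p = 0.0267), the latter lost without siBRPF1 library 1 or 3 or siControl library 1 or 2.

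**Figure D5:**
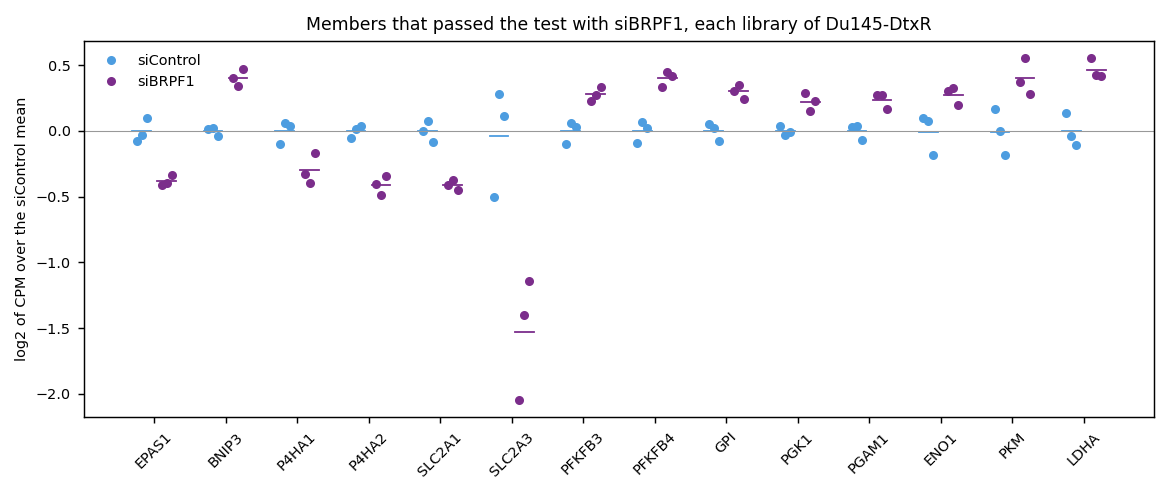
Log2 of CPM relative to the siControl mean (y axis) in each of the 3 siControl (light blue) and 3 siBRPF1 (purple) libraries of Du145-DtxR, for the 14 members that passed the test; bars are means of the log2 values. SLC2A3 shows the largest fall (-1.48 in the fit) and LDHA the largest rise (0.47).

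Of the HIF subunits, HIF1A was at 265, 270 and 347 CPM in siControl and 351, 278 and 375 in siBRPF1, overlapping groups with a value of 0.19 (SE 0.13, adjusted p = 0.313). EPAS1 was at 127, 131 and 144 CPM in siControl and 101, 102 and 106 in siBRPF1, a fall by 0.38 (SE 0.08, adjusted p = 0.00572). BNIP3 rose from 107, 108 and 104 CPM to 140, 135 and 147 (0.40, SE 0.08, adjusted p = 0.00313), while P4HA2 fell from 48.7, 51.2 and 52.0 CPM to 38.2, 36.2 and 39.9 (by 0.41, SE 0.08, adjusted p = 0.00460). P4HA1 was lower by 0.30 (SE 0.09, adjusted p = 0.0289), a call lost without the first or second siBRPF1 or the second siControl library. Scaling by library totals alone also lost the P4HA1 call. VEGFA (-0.21, SE 0.08, adjusted p = 0.0618), ANGPTL4 (-0.19, SE 0.09), BNIP3L (0.18, SE 0.08), EGLN1 (0.09, SE 0.09), EGLN3 (-0.11, SE 0.16), ADM (-0.06, SE 0.21) and ANKRD37 (-0.14, SE 0.34) did not pass. With a replicate block in the fit, HIF1A, VEGFA, ANGPTL4 and BNIP3L passed. CA9 and NDRG1 had too few counts to test, NDRG1 staying at 0.437 CPM or less in all 6 libraries.

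The neighbouring pathways were read from lists of 87 further genes, and each list's counts stand beside the shares over all genes tested. Of 34 other HIF targets, all tested in the resistance experiment, 14 were higher and 9 lower in Du145-DtxR (median log2 fold change 0.09) and 7 higher and 14 lower in Du145-CbzR (median -0.10), where the shares over all genes were 31.1% higher and 32.0% lower in the former and 24.4% and 26.3% in the latter. In Du145-DtxR the extracellular matrix cross-linker LOX rose by 2.67 (SE 0.10) and the secreted glycoprotein STC2 by 2.40 (SE 0.05), and the growth factor PDGFB and the cyclin CCNG2 fell by 1.21 (SE 0.09) and 1.25 (SE 0.10). CA12, a carbonic anhydrase, averaged 6.35 CPM in Du145-P, whereas the Du145-DtxR libraries had 0 counts each, at least 115-fold lower against a floor of 3 counts over the group. In Du145-CbzR the mTORC1 inhibitor DDIT4 fell by 1.24 (SE 0.09), the lipid droplet protein HILPDA by 1.22 (SE 0.14) and CA12 by 1.03 (SE 0.18). The lysyl hydroxylase PLOD2 exceeded its Du145-DtxR level in Du145-CbzR by 1.42 (SE 0.06). The study drew some of these genes (CA12, DDIT4, LOX and STC2, also PDK2, which is described further on, and of the members HK2, PDK1, SLC2A1, VEGFA and HIF1A) from these same libraries in its own lists, so their direction is not independent evidence.

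With siBRPF1, 6 of 33 tested other HIF targets were higher and 8 lower (median -0.08), where 11.6% of all genes were higher and 15.1% lower. The 3 DEGs among them all fell: the repressor BHLHE41 by 1.11 (SE 0.18), LOX by 1.09 (SE 0.15) and DDIT4 by 1.06 (SE 0.10). LOX was at 13.8, 13.7 and 18.3 CPM in siControl and 7.69, 6.34 and 7.45 in siBRPF1, and DDIT4 at 108, 138 and 115 CPM against 56.8, 57.8 and 58.4.

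The genes that regulate HIF showed 4 higher and 5 lower of 12 tested in Du145-DtxR (all genes 31.1% and 32.0%) and 1 higher and 3 lower in Du145-CbzR (all genes 24.4% and 26.3%). In Du145-DtxR, EGLN2 (0.60), ELOC (0.49), CUL2 (0.30) and HIF1AN (0.23) were higher. ARNT2 (-4.61), CITED2 (-0.70), ARNT (-0.23), EP300 (-0.21) and VHL (-0.19) were lower there. In Du145-CbzR, HIF1AN (0.36) was higher, and EP300 (-0.42), VHL (-0.42) and CUL2 (-0.195) were lower. ARNT2, the neural partner of HIF alpha, averaged 0.184 CPM in Du145-DtxR and 5.68 in Du145-CbzR (log2 difference 4.92, SE 0.29). With siBRPF1, 1 was higher and 1 lower of 11 (all genes 11.6% and 15.1%).

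Of 17 tested other genes of glycolysis and lactate transport, 7 were higher and 6 lower in Du145-DtxR (all genes 31.1% and 32.0%), and 1 higher and 8 lower in Du145-CbzR (all genes 24.4% and 26.3%). SLC16A3 (MCT4), the lactate exporter, averaged 79.3 CPM in Du145-P, 142 in Du145-DtxR and 16.3 in Du145-CbzR, with a log2 fold change of -2.28 in Du145-CbzR against Du145-P (SE 0.07, adjusted p = 4.83e-10). The muscle enolase ENO3 and the transporter SLC2A12 fell in Du145-DtxR by 1.19 (SE 0.10) and 1.67 (SE 0.14), and HKDC1, a hexokinase-like gene, rose in Du145-CbzR by 1.19 (SE 0.11). With siBRPF1, 3 of 16 were higher and 3 lower (all genes 11.6% and 15.1%).

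The paralogs of PDK1 each fell in at least 1 line. PDK4 averaged 29.8 CPM in Du145-P, 3.04 in Du145-DtxR and 4.34 in Du145-CbzR, with log2 fold changes of -3.29 (SE 0.14) and -2.78 (SE 0.13). PDK2 fell by 1.48 (SE 0.08) in Du145-DtxR and PDK3 by 1.45 (SE 0.07) in Du145-CbzR, where DLD, a subunit of the pyruvate dehydrogenase complex, fell by 1.03 (SE 0.06). The whole list of 12 genes covers pyruvate entry into mitochondria and the pyruvate dehydrogenase complex with its kinases. Of these, 3 were higher and 6 lower in Du145-DtxR (all genes 31.1% and 32.0%), 2 higher and 6 lower in Du145-CbzR (24.4% and 26.3%), and 1 higher and 3 lower with siBRPF1 (11.6% and 15.1%).

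The pentose phosphate pathway, which branches from glucose 6-phosphate, had 1 gene higher (TALDO1, 0.88) and 4 lower (PGLS -0.92, TKT -0.63, PGD -0.49 and RPIA -0.24) of 6 in Du145-DtxR (all genes 31.1% and 32.0%). In Du145-CbzR 0 were higher and 3 lower (all genes 24.4% and 26.3%), and with siBRPF1 1 was higher and 2 lower (all genes 11.6% and 15.1%).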

How the data were processed

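Members and lists were chosen with earlier results of these data known. Per the study's methods, the authors used STAR for alignment against human transcripts (GENCODE, GRCh38), Salmon for quantification and tximport for gene sums. The deposited tables hold estimated counts, not normalized: library totals differ and 58.4% and 62.8% of values above 0 are whole. The study calls its libraries biological replicates and tested with DESeq2; whether replicates were separate cultures is not given in the sources used here, so p-values may measure technical spread. Strand-specific counting is not given in the sources used here.

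Here the estimated counts were rounded, symbols taken from GENCODE release 44 and each table tested on its own with edgeR 4.0.16 (R 4.3.3): filterByExpr, TMM, and the quasi-likelihood test, with all groups of a table in 1 fit and Benjamini-Hochberg adjustment over 18218 and 15704 genes. Fold changes are log2, SE is the size of the log2 fold change divided by the root of the F statistic, and CPM is TMM-scaled. The scripts were tested on simulated data. Named by rule were members that were DEGs at 1 CPM or more in the higher group, HIF1A and EPAS1, and the extreme of each role. Listed pathway genes that were DEGs at 5 CPM or more were also named by rule. SLC16A3 in Du145-DtxR, the genes that regulate HIF other than ARNT2, and the members of the pentose phosphate list were named after their values were seen. Alternatives were no count filter, a mean of 1 CPM, DESeq2 1.42.0 (size factors and test), library totals, upper-quartile scaling, a replicate block, only the groups compared, a log2 limit of 1 and leaving out each library. Motif shares cover genes with a MANE Select transcript and a promoter entry. Some listed genes are not reported here and were left out of the list counts.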

Additional observations from a re-analysis of the deposited data

Results flagged for a closer look

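For 7 members the change from Du145-P differed between the 2 resistant lines past both DEG limits in the direct comparison of Du145-CbzR with Du145-DtxR (edgeR quasi-likelihood test, 2 libraries each). The Du145-CbzR change minus the Du145-DtxR change was 7.02 for SLC2A3, 6.72 for NDRG1, 2.69 for ADM, 1.15 for PFKFB4 and 1.09 for ENO2 on the log2 scale, and -1.46 for HK2 and -1.39 for VEGFA. ADM, SLC2A3, PFKFB4 and ENO2 were below Du145-P in Du145-DtxR and above it in Du145-CbzR, and VEGFA and HK2 the reverse. Against Du145-P, the HK2 fall and the PFKFB4 rise in Du145-CbzR did not pass with the DESeq2 test (adjusted p = 0.0887 and 0.0982). NDRG1 was below Du145-P in both lines. In the direct comparison, none of these 7 lost its direction or an adjusted p under 0.05 in any alternative that was run. Whether each also stayed past the log2 limit of 1 there was not rechecked.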

How the results depend on the processing

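Over all alternatives, 1512 of 1604 member results kept direction and side of the threshold, 63 lost a call, 29 gained one and 0 reversed. Where counts moved, the cause was not tested, except that a stricter fold limit leaves fewer calls by construction. With a log2 limit of 1, Du145-DtxR against Du145-P kept 2 members higher, 0 HIF targets higher and 1 enzyme higher and 1 lower. Du145-CbzR against Du145-P kept 1 member higher and 2 lower, 1 HIF target higher and 1 lower, and 0 enzymes in either direction. Du145-CbzR against Du145-DtxR kept 2 members, 1 HIF target and 1 enzyme lower, and siBRPF1 kept 0 members, 0 HIF targets and 0 enzymes higher and 1 member and 0 HIF targets lower.

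With upper-quartile scaling, the medians in Du145-DtxR against Du145-P were -0.076 (HIF targets) and 0.41 (enzymes). In Du145-CbzR against Du145-DtxR, 9 members, 4 HIF targets and 3 enzymes were higher and 4 enzymes lower, with medians of 0.019 and -0.061. With siBRPF1, 3 enzymes were higher and the HIF target median was -0.16, where 1445 of all genes were higher, against 1820 in the main fit. With library totals alone, the HIF target median in Du145-DtxR against Du145-P was -0.0095. In Du145-CbzR against Du145-DtxR, 8 members, 4 HIF targets and 2 enzymes were higher, with a HIF target median of -0.035. All genes had 6161 higher and 5311 lower there, against 5690 and 5791 in the main fit, with a median of 0.05. With siBRPF1 1 HIF target was lower, where 2198 of all genes were, against 2369 in the main fit. DESeq2 size factors and a mean of 1 CPM each gave 2 enzymes higher in Du145-CbzR against Du145-DtxR, with 5721 and 5293 of all genes higher. The DESeq2 test gave 1 enzyme lower in Du145-CbzR against Du145-P, with 3697 of all genes lower, against 4790 in the main fit.

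Leaving out each library in turn gave, in Du145-DtxR against Du145-P, a HIF target median of 0.018 to 0.065. In Du145-CbzR against Du145-P it gave 1 to 1 enzymes lower, an enzyme median of 0.29 to 0.36 and a HIF target median of -0.0053 to 0.025. In Du145-CbzR against Du145-DtxR it gave 1 to 2 enzymes higher and 5 to 8 lower. With siBRPF1 it gave 3 to 7 members and 1 to 4 enzymes higher, 1 to 3 HIF targets lower, and medians of -0.20 to -0.0080 (HIF targets) and 0.10 to 0.20 (enzymes). Over all genes the same siBRPF1 fits gave 935 to 1988 higher and 1468 to 2412 lower, against 1820 and 2369 in the main fit.

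Same-numbered siRNA libraries correlated at 0.06, 0.17 and 0.34 in their deviations, and differently numbered ones at -0.32 to 0.20. The second siBRPF1 library correlated best with the first siControl library, at 0.20 against 0.17 with its own number. Same-numbered resistance libraries lay between -0.02 and 0.08. Whether replicate numbers pair the siRNA libraries is thus not settled, and the main fit left pairing out. A replicate block gave, with siBRPF1, 13 members higher and 8 lower, 2 HIF targets higher and 4 lower, and 1 enzyme lower. Over all genes it gave 3193 higher and 3408 lower, against 1820 and 2369. HIF1A, BNIP3L, PFKP and TPI1 were the members gained upward, and VEGFA, ANGPTL4 and ALDOC those gained downward. Depth limits CA9, NDRG1 with siBRPF1, ANKRD37 and ALDOC.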

Other observations

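Du145-DtxR cells were sequenced in both experiments, and some members stood at different levels in the 2 tables, which were quantified and scaled separately and were not tested against each other. EPAS1 was at 17.9 and 16.5 CPM in the Du145-DtxR libraries of the resistance experiment and at 127, 131 and 144 CPM in siControl. ANGPTL4 was at 17.2 and 17.4 CPM in the former and at 129, 148 and 118 in the latter, and ALDOC at 0.882 and 1.37 against 14.7, 18.1 and 15.1. NDRG1 and SLC2A3 were low in both, at 0.809 CPM or less and at 4.61 CPM or less. The siControl cells had been transfected and the Du145-DtxR cells of the resistance experiment had not, and the effects of transfection, culture and sequencing run cannot be told apart here.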
